A study of Mus musculus with 43 samples.

Results

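The genes of the RNA-binding and chromatin programme that marks fetal cells were followed through single cells of the mouse yolk sac (YS). The 8 genes were Lin28a, Lin28b, Igf2bp1, Igf2bp2, Igf2bp3, Hmga1, Hmga2 and Arid3a, taken by name from 23154 genes in the stage tables and 24414 in the tables of sorted cells. The stage libraries came from E8.0 (2 libraries, 57 cells), E8.5 (10 libraries, 132 cells), E9.0 (9 libraries, 97 cells), E9.5 (10 libraries, 110 cells) and E10.0 (9 libraries, 82 cells). Cell names in the tables gave 4, 8, 18, 25 and 35 somite pairs at these stages. The sorted samples were Gja5+Cd44+ YS (50 cells), Gja5-Cd44+ YS (36 cells) and Gja5+Cd44+ CR (44 cells), 1 sample per group. The labels did not spell out CR and gave the sorted samples no stage. Gja5 encodes a connexin known from arteries and Cd44 a receptor for hyaluronan, and the labels did not say how either was detected. No strain, genotype or treatment was labelled, every cell was labelled endothelial, and cells were picked by their morphology. Each library was taken as a replicate. The labels did not say which libraries shared embryos, so p-values speak to how libraries varied, and some of that variation may be technical.

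LIN28 proteins bind the loop of the let-7 precursor hairpin and block its maturation, and let-7 in turn represses the transcripts of LIN28, of the HMGA chromatin proteins and of the IGF2BP proteins. The IGF2BP proteins bind and stabilise mRNAs, among them Igf2, and ARID3A is an AT-rich-interaction DNA-binding factor of early blood and B lymphoid cells. In mouse haematopoiesis, high LIN28B with low let-7 is known as the mark of fetal progenitors, whose lymphoid output differs from that of adult progenitors.

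The mature let-7 sequences are shown because they share a seed (bases 2 to 8, in capitals), which defines the target sites searched for below. All 12 let-7 (Mirlet7) and mir-98 hairpins of the RefSeq table (GRCm38.p6) hold this seed. Their 11 mature entries that carry it give 9 distinct sequences, of which 4 follow.
let-7a: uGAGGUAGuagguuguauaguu
let-7b: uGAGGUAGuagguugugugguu
let-7d: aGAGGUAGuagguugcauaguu
let-7g: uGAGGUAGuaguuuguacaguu
They lie at chr13:48538239-48538260 (minus strand) for let-7a, chr15:85707325-85707346 (plus) for let-7b, chr13:48536078-48536099 (minus) for let-7d and chr9:106178846-106178867 (plus) for let-7g. The let-7g hairpin (chr9:106178840-106178927, plus strand) is shown with the GGAG tetramer, which LIN28 zinc knuckles are known to bind, in capitals.
let-7g hairpin: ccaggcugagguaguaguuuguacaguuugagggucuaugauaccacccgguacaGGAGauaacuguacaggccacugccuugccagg
GGAG followed the 5′ arm in 9 of the 12 hairpins and not in the other 3.

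All 8 genes held at least 1 copy of CTACCTC, the complement of the let-7 seed on the transcribed strand, in their longest annotated 3′ untranslated region (UTR; GENCODE M21, GRCm38). The same 7 bases occurred at least once in 1878 of 20968 genes (8.96%) with an annotated 3′ UTR. At least 2 copies occurred in 5 of the 8 genes (62.5%), against 225 genes (1.07%) of the annotation. These genes are known let-7 targets and are grouped here partly for that reason, so the counts describe the set. The first site of each gene is shown in a window of 22 bases, with the match in capitals.
Lin28b: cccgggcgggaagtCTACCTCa
Lin28a: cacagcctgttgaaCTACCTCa
Igf2bp1: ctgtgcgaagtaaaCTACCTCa
Igf2bp2: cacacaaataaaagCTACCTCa
Igf2bp3: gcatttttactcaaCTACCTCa
Hmga2: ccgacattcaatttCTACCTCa
Hmga1: cctctgttcacaaaCTACCTCt
Arid3a: aggcaagtttctttCTACCTCa
All of these windows lie in 3′ UTR exons: Lin28b at chr10:45381022-45381043 (minus strand), Lin28a at chr4:134005189-134005210 (minus), Igf2bp1 at chr11:95961778-95961799 (minus) and Igf2bp2 at chr16:22059473-22059494 (minus). Igf2bp3 lies at chr6:49086787-49086808 (minus), Hmga2 at chr10:120364224-120364245 (minus), Hmga1 at chr17:27563278-27563299 (plus) and Arid3a at chr10:79953896-79953917 (plus). Lin28b, Igf2bp1 and Hmga2 each held 4 copies, Lin28a and Arid3a 2 each, and Igf2bp2, Igf2bp3 and Hmga1 1 each. Among genes with a 3′ UTR within 1.5 times the same length, 4 or more copies occurred in 0.238% for Lin28b, 0.432% for Igf2bp1 and 0.187% for Hmga2, while 1 or more occurred in 11.7% for Igf2bp2. A match is a string of letters and was not tested as a site. The polyA libraries did not measure let-7 itself: in the sorted tables the only let-7 row with any counts was Mirlet7d, with 0 counts in Gja5+Cd44+ YS, 3 in Gja5-Cd44+ YS and 1 in Gja5+Cd44+ CR.

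Many cells labelled endothelial carried blood transcripts, so results are given by class. Levels are counts scaled to a total of 1000000 (CPM) for a cell, or of all cells of a class summed per library. A cell was called Cdh5-expressing when Cdh5, the endothelial cadherin, reached 10 CPM and fewer than 3 of 23 blood genes did, and blood-marker when at least 3 blood genes did and Cdh5 did not. A further 38 of 57, 76 of 132, 49 of 97, 36 of 110 and 16 of 82 cells from E8.0 to E10.0 met both conditions and entered neither class. A second gate, chosen after these counts were seen, called cells with at least 6 blood genes blood-marker whatever their Cdh5 and the other cells with Cdh5 Cdh5-expressing. It placed every cell. Libraries with at least 3 cells of a class were used, which left 2, 2, 5, 2 and 9 libraries of Cdh5-expressing cells from E8.0 to E10.0. At E8.5 replicate 10 held 28 of the 33 cells used and replicate 3 the other 5. All 18 pan-endothelial markers, Cdh5 included, were at 10 CPM or more in the Cdh5-expressing class at every stage. Erythroid transcripts were present too. Under the planned gate, 8 erythroid markers summed per library to 121 to 184 CPM at E8.0 and 285 to 330 at E8.5. The sums were 0.459 to 484 CPM at E9.0, 266 to 1530 at E9.5 and 48.8 to 896 at E10.0. The globin genes among these markers are not on the list of 23 blood genes. Library totals ranged from 2172087 to 42245455 counts, and single cells from 102221 to 2420388. Median counts per Cdh5-expressing cell were 272000, 503000, 731000, 446000 and 417000 from E8.0 to E10.0. Under the second gate they were 279000, 595000, 673000, 409000 and 415000. Blood-marker cells of that gate were deeper, at 411000, 975000, 932000 and 823000 from E8.0 to E9.5.

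Lin28a, the paralogue known from pluripotent cells and the early embryo, fell in Cdh5-expressing cells between E8.5 and E10.0. It stood at 63.6 and 39.9 CPM in the E8.0 libraries, at 154 and 92.6 CPM at E8.5, then at 37.2, 60.9, 10.9, 12.7 and 37.4 CPM at E9.0. At E9.5 it stood at 18.8 and 19.2 CPM, and across the 9 libraries of E10.0 the lowest was 0, the median 2.02 and the highest 8.81 CPM. The E10.0 libraries lay below every library of the earlier stages without overlap. The means were 51.8 ± 16.7 CPM (SD, n = 2) at E8.0, 123 ± 43.3 (n = 2) at E8.5, 31.8 ± 20.7 (n = 5) at E9.0, 19 ± 0.266 (n = 2) at E9.5 and 3.9 ± 3.68 (n = 9) at E10.0.

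**Figure D1:**
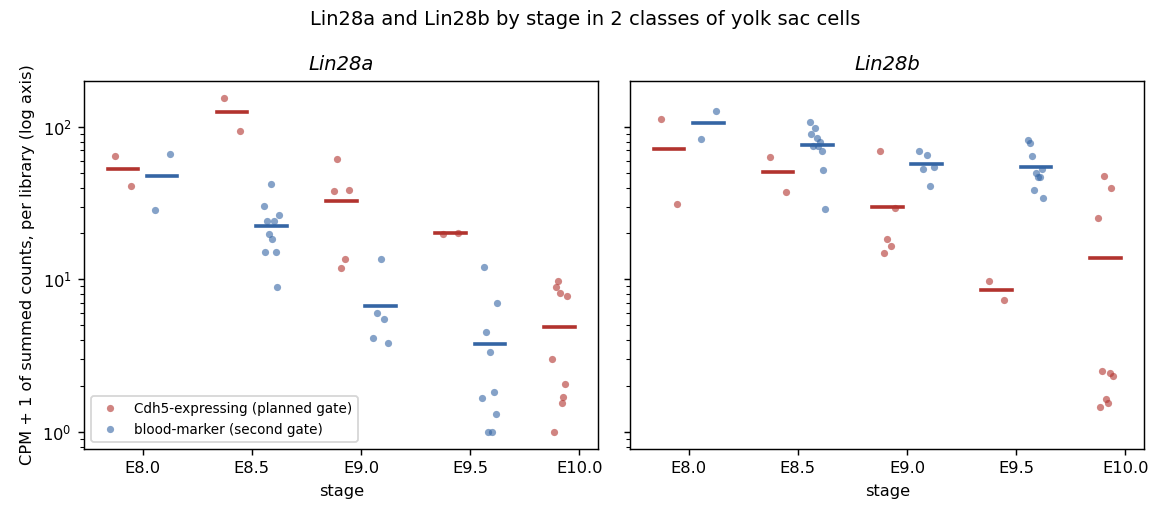
Lin28a and Lin28b levels per library by stage, as CPM + 1 on a log axis. Cdh5-expressing cells (planned gate) are in red, blood-marker cells (second gate) in blue, and lines mark the stage means. Lin28a is near 0 in both classes at the last stage each reaches. Lin28b averages 53.8 CPM in E9.5 blood-marker libraries (replicates 1 to 9) and 7.56 CPM in E9.5 Cdh5-expressing libraries (replicates 9 and 10). Class and library can hardly be told apart there.

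In edgeR's quasi-likelihood test the log2 fold change of Lin28a at E10.0 over E8.5 was -5.06 (SE 0.84, Benjamini-Hochberg adjusted p = 0.000675), and it was the only one of the 7 tested genes called. Of 11841 genes tested, 272 (2.3%) were called. The second gate gave -4.79 (SE 0.67, adjusted p = 2.79e-05, edgeR), with 5.77% of 12124 genes called. The call rested on the few E8.5 libraries: without E8.5 replicate 3, the adjusted p of Lin28a was 0.0552 with a log2 fold change that stayed within -5.28 to -4.69 over all 20 libraries left out in turn. Against E9.0 the E10.0 level was also lower, with a log2 fold change of -3.13 (SE 0.71, adjusted p = 0.0141, edgeR), in a comparison that called 1.69% of genes. That call was lost without E9.0 replicate 6 (adjusted p = 0.089) and when libraries with under 5 cells were left out (-3.16, adjusted p = 1.0). The second gate gave -3.14 (SE 0.62, adjusted p = 0.00566, edgeR), in a comparison that called 2.2% of genes.

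The change between any neighbouring stages did not pass the test. For Lin28a the log2 fold change was 1.25 at E8.5 over E8.0, -1.92 at E9.0 over E8.5, -0.89 at E9.5 over E9.0 and -2.25 at E10.0 over E9.5, each with an adjusted p of 1.0 in edgeR. Each of these comparisons called 0 genes (0.0%). At an unadjusted p under 0.05 they held 171, 342, 478 and 237 genes, and DESeq2 called 4, 22, 0 and 7. By the second gate edgeR called 0.0247%, 0.0412%, 0.0% and 0.0247% of genes in the same 4 comparisons, none of them among the 8. For the pair with 0.0%, E9.5 over E9.0, 810 genes had an unadjusted p under 0.05 and DESeq2 called 20.

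The decline was also seen as a falling share of cells with Lin28a. In a summed library, fewer expressing cells and less RNA per cell cannot be told apart, so the shares are given beside the levels. Lin28a reached 10 CPM in 14 of 15 Cdh5-expressing cells at E8.0 (93.3%), 40 of 41 at E8.5 (97.6%), 20 of 39 at E9.0 (51.3%), 8 of 42 at E9.5 (19%, exact binomial 95% interval 8.6 to 34.1) and 5 of 66 at E10.0 (7.58%, interval 2.51 to 16.8). Cells of 1 stage share libraries, so these intervals cover counting error only. With every cell thinned to 100000 counts, the share with at least 1 Lin28a count was higher, at 71.8% at E9.0, 28.6% at E9.5 and 13.6% at E10.0. The thinned E9.0 share lay above the exact binomial interval of the share at 10 CPM, 34.8 to 67.6. The median cell held 43.2, 78.0, 11.5, 0.651 and 0 CPM from E8.0 to E10.0, and 51 of the 66 E10.0 cells had no Lin28a count.

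Lin28b, the paralogue known for the fetal blood programme, followed a more variable course in Cdh5-expressing cells. It stood at 111 and 30.2 CPM at E8.0, at 62.4 and 36.5 CPM at E8.5, at 68.0, 13.9, 17.5, 15.5 and 28.6 CPM at E9.0 and at 8.82 and 6.29 CPM at E9.5. At E10.0 replicates 1, 4 and 8 held 24.2, 46.8 and 38.7 CPM, and the other 6 libraries lay between 0.46 and 1.53 CPM. The E10.0 range therefore overlapped those of all earlier stages. The log2 fold change at E10.0 over E8.5 was -2.09 (SE 1.12, adjusted p = 0.498, edgeR). The second gate had 4 libraries at E8.5 (95.5, 87.8, 62.4 and 34.8 CPM) and gave -2.51 (SE 0.76, adjusted p = 0.0442, edgeR). That call was lost without E8.5 replicate 1 (adjusted p = 0.12), replicate 2 (0.101) or replicate 3 (0.0994), and without E9.0 replicate 9 (0.0534). Only E8.5 and E9.0 libraries were left out of this second-gate fit, so its dependence on single E10.0 libraries was not tested.

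Cells at 10 CPM of Lin28b numbered 13 of 15 (86.7%) at E8.0, 27 of 41 (65.9%) at E8.5, 22 of 39 (56.4%) at E9.0, 6 of 42 (14.3%) at E9.5 and 7 of 66 (10.6%) at E10.0. At E10.0, 45 of the 66 cells had no Lin28b count. The few positive E10.0 cells mostly held only one paralogue: 1 cell held both, 4 held Lin28a alone, 6 held Lin28b alone and 55 held neither at 10 CPM. At E8.5 the same classes held 26, 14, 1 and 0 of 41 cells.

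**Figure D2:**
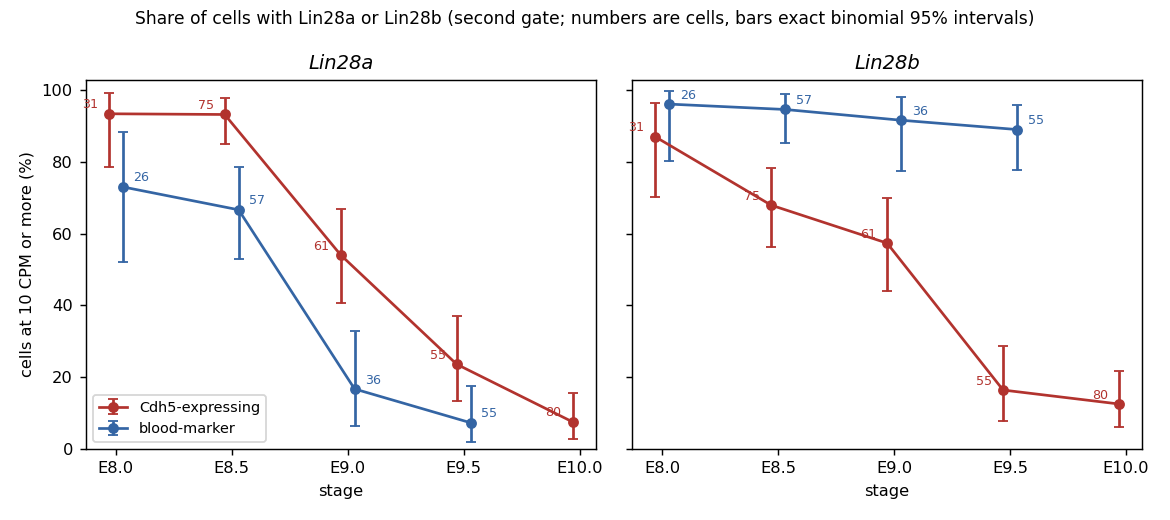
Share of cells with Lin28a or Lin28b at 10 CPM or more by stage under the second gate, with exact binomial 95% bars and the number of cells printed. In blood-marker cells Lin28a reaches 7.27% at E9.5 while Lin28b stays at 89.1%. In Cdh5-expressing cells Lin28b is at 16.4% at E9.5 and 12.5% at E10.0. Most E9.5 cells of the classes come from separate libraries.

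The IGF2BP genes, whose proteins bind mRNAs in the cytoplasm, remained detected in most Cdh5-expressing cells. Igf2bp1 stood at 264 and 115 CPM at E8.0, at 346 and 234 CPM at E8.5, then at 326, 207, 115, 291 and 292 CPM at E9.0. At E9.5 it stood at 239 and 149 CPM, and at E10.0 the lowest library was 131, the median 169 and the highest 302 CPM. All stages overlapped. Its log2 fold change at E10.0 over E8.5 was -0.72 (SE 0.36, adjusted p = 0.449, edgeR). The second gate gave -0.78 (SE 0.24, adjusted p = 0.0496, edgeR), a call lost when any of the 4 E8.5 libraries was left out (adjusted p between 0.0572 and 0.175), and without E9.0 replicate 5 (0.0509), replicate 8 (0.0534) or replicate 9 (0.061). Libraries of the other stages were not left out there.

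Igf2bp3 averaged 147 ± 99.6, 137 ± 2.91, 151 ± 26.9, 112 ± 25.0 and 142 ± 61.4 CPM from E8.0 to E10.0 (SD, n = 2, 2, 5, 2 and 9), with a log2 fold change of -0.1 (SE 0.43) at E10.0 over E8.5. Igf2bp2 averaged 81.7 ± 21.9, 75.8 ± 28.5, 62.1 ± 26, 71.4 ± 28.4 and 52.7 ± 36.5 CPM over the same stages, with a log2 fold change of -0.67 (SE 0.59). Neither passed the test (adjusted p = 0.996 and 0.792, edgeR). The share of cells at 10 CPM was lower at E10.0 for all 3 genes: 84.8% at E10.0 and 100% at E8.5 for Igf2bp1, 54.5% at E10.0 and 85.4% at E8.5 for Igf2bp2, and 66.7% at E10.0 and 95.1% at E8.5 for Igf2bp3. These shares describe cells and were not tested between stages.

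Hmga2, an AT-hook chromatin protein of proliferating embryonic cells, stood at 388 and 326 CPM at E8.0, at 394 and 214 CPM at E8.5, then at 282, 134, 109, 89.3 and 188 CPM at E9.0. At E9.5 it stood at 206 and 182 CPM, and at E10.0 the libraries ran from 43.8 over a median of 161 to 431 CPM. The highest E10.0 library, replicate 4, exceeded every library of the earlier stages, so that the E10.0 range overlapped all of them. The E8.0 libraries lay above those of E9.0 and E9.5 without overlap, and the E8.5 libraries above those of E9.5. The log2 fold change at E10.0 over E8.5 was -1.0 (SE 0.5, adjusted p = 0.449, edgeR), and -0.92 (SE 0.35, adjusted p = 0.129) under the second gate. It passed the edgeR test only when libraries with consecutive batch titles were summed into 1 sample (-1.17, adjusted p = 0.0459).

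Arid3a averaged 46.9 ± 16.8, 56.6 ± 17.6, 58.3 ± 16.8, 78.2 ± 19.7 and 59.8 ± 33.9 CPM from E8.0 to E10.0 (SD, n = 2, 2, 5, 2 and 9). Its log2 fold change at E10.0 over E8.5 was -0.05 (SE 0.59, adjusted p = 0.998, edgeR), with libraries between 25.1 and 127 CPM at E10.0. Hmga1 had 38 counts in 11 of 478 stage cells and 0 in all sorted cells. The transcript of Hmga1b, a copy elsewhere in the genome, shares 89.0% of its 50-base windows (1403 of 1577) with Hmga1, so the level of Hmga1 could not be read from these counts. The sources used here do not say whether counting used the strand, and an exon of Malsu1, which had 16557 counts against 36696 for Igf2bp3, overlaps Igf2bp3 on the opposite strand.

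**Figure D3:**
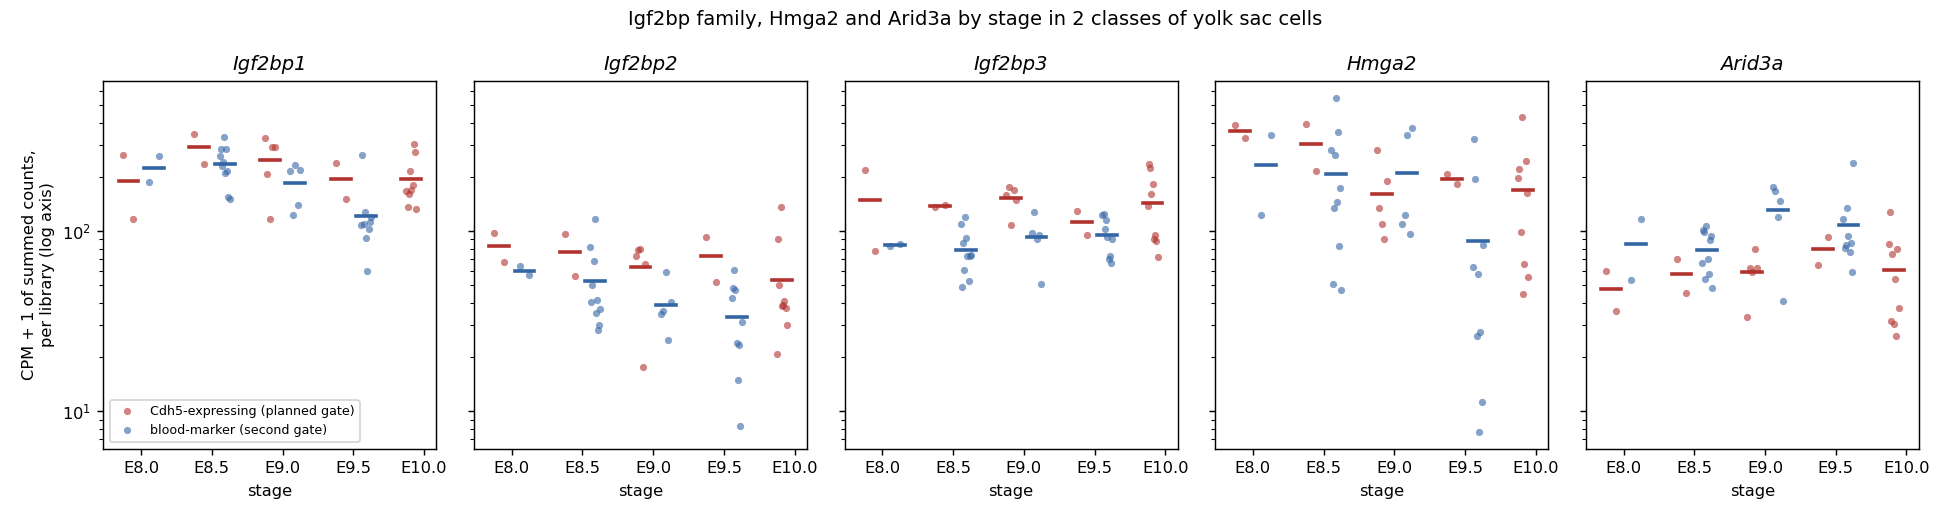
Igf2bp1, Igf2bp2, Igf2bp3, Hmga2 and Arid3a per library by stage, as CPM + 1 on a log axis. Cdh5-expressing cells (planned gate) are in red, blood-marker cells (second gate) in blue, and lines mark the stage means. In Cdh5-expressing cells the E10.0 range overlaps that of each earlier stage for all 5 genes, and Igf2bp1 in blood-marker cells averages 236 CPM at E8.5 and 121 CPM at E9.5.

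The Cdh5-expressing cells themselves changed over these stages. Under the planned gate, the summed level of 11 arterial markers ranged over 221 to 360 CPM at E8.0, 271 to 339 at E8.5, 312 to 737 at E9.0, 1330 to 2210 at E9.5 and 869 to 3670 CPM at E10.0. Gja5, Hey2, Bmx and Cxcr4 were at 0 in the 15 E8.0 cells of that gate. In the 31 E8.0 cells of the second gate only Bmx was at 0. The part of the arterial shift in the Lin28a change was not tested. Visceral endoderm markers, 8 genes, summed to at most 41.8 CPM in any library of the class under the planned gate. Under the second gate E9.0 replicate 6 (5 cells) held 851 CPM and the other libraries at most 38.4 CPM. Without that library the second gate gave -2.73 for Lin28a at E10.0 over E9.0 (SE 0.65, adjusted p = 0.0341, edgeR) and -4.83 at E10.0 over E8.5 (SE 0.67, adjusted p = 2.5e-05).

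Lin28b was still detected in most blood-marker cells at E9.5, whereas Lin28a fell after E8.5 under the second gate. That gate gave 2, 10, 5 and 9 libraries from E8.0 to E9.5 and none at E10.0. Lin28a stood at 27.5 and 65.0 CPM at E8.0. At E8.5 its lowest, median and highest libraries were 7.94, 20.9 and 41.1 CPM. At E9.0 it stood at 3.16, 5.07, 12.7, 4.54 and 2.81 CPM, and at E9.5 the lowest, median and highest were 0, 0.832 and 11.1 CPM. Only the highest E9.5 library overlapped the E8.5 range. The mean was 2.76 ± 3.72 CPM at E9.5 (SD, n = 9) and 21.5 ± 9.33 CPM at E8.5 (n = 10). The log2 fold change was -2.97 (SE 0.65, adjusted p = 0.00313, edgeR), and the call held with each of the 26 libraries left out in turn. The comparison called 10.3% of 12753 genes.

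That call depended on treating each batch title as a replicate: with consecutive batches of a stage summed, the log2 fold change was -2.62 with an adjusted p of 0.54 in edgeR. Under the planned gate, with 7 libraries at E9.5 (lowest 0, median 0.325, highest 13.5 CPM) and 3 at E8.5 (10.1, 11.6 and 8.29 CPM), the change was -2.49 (SE 1.33, adjusted p = 0.316, edgeR). There E9.5 replicate 2 alone stood above 1 CPM, and without it the change was -5.16 (adjusted p = 0.0162). None of the 7 genes was called by edgeR or DESeq2 under the planned gate, where edgeR called 4.81% of 11943 genes, and 1, Igf2bp1, had an unadjusted p under 0.05. Between E9.0 and E8.5, where only the second gate gave libraries, Lin28a had a log2 fold change of -1.94 (SE 0.76, adjusted p = 0.158, edgeR). None of the 7 was called there by either tool, against 3.43% of genes in edgeR, nor at E9.5 over E9.0, against 0.00784%. In each of these comparisons 2 of the 7 had an unadjusted p under 0.05.

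Lin28b in the same blood-marker libraries stood at 82.3 and 126 CPM at E8.0. Its lowest, median and highest libraries were 28.1, 76.0 and 107 CPM at E8.5 and 33.3, 49.0 and 80.5 CPM at E9.5, with 68.9, 51.8, 64.3, 39.7 and 53.7 CPM at E9.0. The E8.0 libraries lay above those of E9.0 and E9.5 without overlap, and the E8.5 range overlapped all the others. The log2 fold change at E9.5 over E8.5 was -0.49 (SE 0.19, adjusted p = 0.1, edgeR; 0.0363 without E8.5 replicate 10) and -0.13 (SE 0.41, adjusted p = 0.909) under the planned gate. Lin28b reached 10 CPM in 25 of 26 blood-marker cells at E8.0 (96.2%), 54 of 57 at E8.5 (94.7%), 33 of 36 at E9.0 (91.7%) and 49 of 55 at E9.5 (89.1%, exact binomial 95% interval 77.8 to 95.9). Lin28a reached it in 19 of 26 (73.1%) at E8.0, 38 of 57 (66.7%) at E8.5, 6 of 36 (16.7%) at E9.0 and 4 of 55 (7.27%) at E9.5. At E9.5, 45 of the 55 cells held Lin28b alone, 4 held both, 6 neither and 0 Lin28a alone.

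Igf2bp1 fell in blood-marker cells between E8.5 and E9.5 under the second gate. Its lowest, median and highest libraries were 58.9, 109 and 263 CPM at E9.5, and 150, 234 and 332 CPM at E8.5. Replicate 2 supplied the highest E9.5 value and was the only E9.5 library inside the E8.5 range. The log2 fold change was -0.97 (SE 0.19, adjusted p = 0.00138, edgeR), called with each library left out in turn. It was not called with consecutive batches summed (-0.77, adjusted p = 0.628) or under the planned gate (-0.81, SE 0.36, adjusted p = 0.215), where it was called without E9.5 replicate 2 (-1.1, adjusted p = 0.0317).

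The other blood-marker changes at E9.5 over E8.5 did not pass the edgeR test under the second gate. Hmga2 averaged 87.4 ± 105 CPM at E9.5 and 207 ± 157 CPM at E8.5 (SD, n = 9 and 10), with a log2 fold change of -1.27 (SE 0.52, adjusted p = 0.116). Without E9.5 replicate 2 it was -1.78 (adjusted p = 0.0226). Igf2bp2 had a log2 fold change of -0.69 (SE 0.29, adjusted p = 0.127). Igf2bp3 averaged 94.1 ± 22.4 CPM at E9.5 and 77.8 ± 23.2 CPM at E8.5, with a log2 fold change of 0.27 (SE 0.17, adjusted p = 0.36). Arid3a averaged 107 ± 54.1 CPM at E9.5 and 77.6 ± 21.6 CPM at E8.5, with a log2 fold change of 0.52 (SE 0.27, adjusted p = 0.234).

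The make-up of the blood-marker class shifted with stage. Counting each cell by the blood lineage whose markers led, erythroid, megakaryocyte and myeloid cells numbered 14, 4 and 2 of 26 at E8.0, 24, 8 and 23 of 57 at E8.5, 1, 21 and 14 of 36 at E9.0 and 4, 46 and 4 of 55 at E9.5, with the rest tied. The summed level of 7 megakaryocyte markers per library ranged over 183 to 804 CPM at E8.5, 482 to 9570 at E9.0 and 31.3 to 17600 CPM at E9.5. The second gate placed cells in this class whatever their Cdh5, and endothelial transcripts shifted too. The summed level of 18 pan-endothelial markers had a median over libraries of 1140 CPM at E8.5, 672 at E9.0 and 591 CPM at E9.5. The ranges of these stages overlapped. The part of either shift in the blood-marker changes, those of Lin28a and Igf2bp1 included, was not tested. Within megakaryocyte-led cells summed over libraries, Lin28a stood at 13.7 CPM (8 cells) at E8.5, 3.21 (21 cells) at E9.0 and 1.07 CPM (46 cells) at E9.5, whereas Lin28b stood at 63.8, 50.6 and 50.9 CPM. Igf2bp1 in these cells stood at 205, 167 and 109 CPM. Hmga2 differed between lineages, at 496 CPM in 23 myeloid-led, 59.0 CPM in 8 megakaryocyte-led and 19.7 CPM in 24 erythroid-led cells of E8.5. These sums over cells have no replicate check.

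Where both classes came from the same library, Lin28a, Igf2bp3 and Hmga2 were higher in Cdh5-expressing cells under the second gate. The 9 libraries with both were 2 from E8.0, 4 from E8.5, 1 from E9.0 and 2 from E9.5, and library entered the fit as a block. Lin28a was higher in Cdh5-expressing cells in 8 of the 9, at 65.8 ± 43.8 CPM in Cdh5-expressing and 21.5 ± 19.7 CPM in blood-marker cells (SD, n = 9). The log2 fold change was 1.99 (SE 0.51, adjusted p = 0.0124, edgeR), called with each library left out. In this comparison 21.5% of 9473 genes were called.

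Igf2bp3 was higher in Cdh5-expressing cells in 9 of 9 libraries (144 ± 34.4 CPM in Cdh5-expressing and 76.3 ± 19 CPM in blood-marker cells), with a log2 fold change of 0.81 (SE 0.22, adjusted p = 0.0158, edgeR). The call was lost without E8.5 replicate 2 (0.0664) or E9.0 replicate 5 (0.057). Hmga2 was higher in 7 of 9 (291 ± 97.9 CPM in Cdh5-expressing and 159 ± 137 CPM in blood-marker cells), with a log2 fold change of 1.35 (SE 0.41, adjusted p = 0.0311, edgeR), and was called in 4 of the 9 fits with a library left out. DESeq2 called 5 of the 7 in this comparison, adding Arid3a and Igf2bp2. Lin28b was higher in 3 of 9, at 56.2 ± 32.7 CPM in Cdh5-expressing and 71.0 ± 33.6 CPM in blood-marker cells, and did not pass the test (-0.61, SE 0.37, adjusted p = 0.278, edgeR).

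Arid3a was higher in Cdh5-expressing cells in 2 of 9 libraries (-0.66, SE 0.25, adjusted p = 0.0741, edgeR), and Igf2bp1 and Igf2bp2 in 8 of 9 each, with log2 fold changes of 0.36 (adjusted p = 0.197) and 0.67 (0.0615). The planned gate left 2 libraries with both classes, E8.0 replicate 1 and E8.5 replicate 10. There Hmga2 stood at 388 and 214 CPM in Cdh5-expressing cells, against 54.1 and 4.97 CPM in blood-marker cells, with a log2 fold change of 3.88 (SE 0.56, adjusted p = 0.00298, edgeR). Igf2bp3 was called too (1.37, SE 0.34, adjusted p = 0.0305) and Lin28a was not (2.06, SE 0.67, adjusted p = 0.0843), in a comparison with 1 residual degree of freedom that called 12.2% of 9766 genes.

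Whether the classes differed in their change with stage was tested directly, and none of the 7 tested genes was called by edgeR or DESeq2. These fits had no library block, so sums of both classes from the same library were treated as independent. For Lin28b, the change at E9.5 over E8.5 in Cdh5-expressing cells minus that in blood-marker cells was -2.69 (SE 1.69, adjusted p = 1.0, edgeR) under the planned gate and -2.3 (SE 0.91, adjusted p = 0.311) under the second. For Lin28a the same difference was -0.29 (SE 2.01) and 0.31 (SE 1.09), each with an adjusted p of 1.0. These fits called 0.0573% and 0.137% of genes, and the E9.0 fit under the second gate, where Lin28b differed by -0.66 (SE 0.84, adjusted p = 0.924), called 0.0505%. At an unadjusted p under 0.05, the E9.5 fit under the second gate held 2 of the 7, Lin28b and Igf2bp3, and the others 0. The gap between the Lin28b shares of the classes at E9.5, 16.4% (interval 7.77 to 28.8) of 55 Cdh5-expressing cells and 89.1% of 55 blood-marker cells, is thus a description of those cells. Replicates 9 and 10 held 22 and 29 of these Cdh5-expressing cells. Of the 55 blood-marker cells of that gate replicate 9 held 3, and the rest came from replicates 1 to 8. Class and library can therefore hardly be told apart at E9.5. The same holds at E9.0 under the second gate. There the Cdh5-expressing sums came from replicates 5 to 9 and the blood-marker sums from replicates 1 to 5, with only replicate 5 in both.

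**Figure D4:**
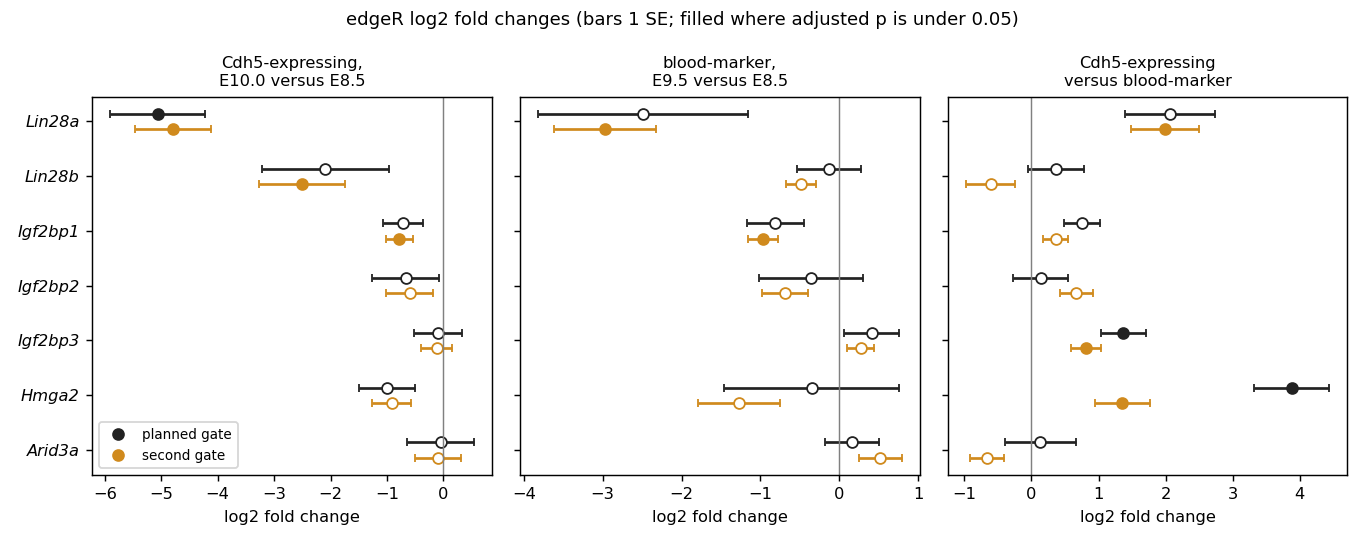
edgeR log2 fold changes ± 1 SE for Cdh5-expressing cells at E10.0 over E8.5, blood-marker cells at E9.5 over E8.5, and Cdh5-expressing over blood-marker cells, with the planned gate in black and the second gate in orange and filled points where the adjusted p is under 0.05. Lin28a in Cdh5-expressing cells, at -5.06 and -4.79, is the point farthest below 0.

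Splitting Cdh5-expressing cells of a library by Gja5 at 10 CPM gave no called gene among the 7 tested, by edgeR or DESeq2, and 0 at an unadjusted p under 0.05. Lin28b had a log2 fold change of -1.8 (SE 1.39, adjusted p = 0.978, edgeR) in cells with over cells without Gja5, and Lin28a -0.48 (SE 1.01, adjusted p = 0.998), in a fit that called 0.237% of 9707 genes. Under the second gate, which called 0.192%, they were -0.2 and -0.67. The planned gate had 4 libraries with cells on both sides and 3 residual degrees of freedom, and the second gate 6 and 5. Fits this small can miss differences, so the lack of calls does not show equal levels.

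The sorted samples differed in Lin28b, which was lower in Gja5+Cd44+ YS cells than in either of the others. These are single samples, so the intervals (exact Poisson, 95%) cover counting error only and no test was made. Lin28b stood at 10.2 CPM (8.42 to 12.2) in Gja5+Cd44+ YS, at 53.1 CPM (48.3 to 58.3) in Gja5-Cd44+ YS and at 35.3 CPM (31.5 to 39.3) in Gja5+Cd44+ CR. It reached 10 CPM in 4 of 50 Gja5+Cd44+ YS cells (8.0%), 19 of 36 Gja5-Cd44+ YS cells (52.8%) and 17 of 44 Gja5+Cd44+ CR cells (38.6%). In Gja5+Cd44+ YS, 77 of its 117 counts came from 1 cell. Without the cell with most counts in each sample, the level was 3.49 CPM in Gja5+Cd44+ YS, against 44.8 CPM in Gja5-Cd44+ YS and 31.2 CPM in Gja5+Cd44+ CR. The ratio over Gja5-Cd44+ YS was 0.192 with that cell and 0.0781 without it.

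Lin28a had no counts in the 50 Gja5+Cd44+ YS cells, which allows up to 0.261 CPM as the level of 3 counts (0.321 CPM as the upper end of the exact Poisson interval). It had 18 counts (2.16 CPM, 1.28 to 3.41) in Gja5-Cd44+ YS, 17 of them in 1 cell, and 47 counts (5.12 CPM, 3.76 to 6.8) in Gja5+Cd44+ CR. Without the cell with most counts in each sample, the level was 0.125 CPM in Gja5-Cd44+ YS, under the level of 3 counts, and 2.3 CPM in Gja5+Cd44+ CR, so the Lin28a counts of Gja5-Cd44+ YS rest on that cell. Set beside the stage tables, which were made separately, all 3 samples lay within the Lin28a range of the E10.0 Cdh5-expressing libraries, 0 to 8.81 CPM. They also lay within that of the E9.5 blood-marker libraries under the second gate, 0 to 11.1 CPM. The level thus places the samples in no single stage or class.

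Igf2bp2 was 3.79-fold higher in Gja5+Cd44+ YS (131 CPM, 125 to 138) than in Gja5-Cd44+ YS (34.6 CPM, 30.8 to 38.9), and Gja5+Cd44+ CR held 172 CPM (164 to 181). Igf2bp1 ran the other way, at 143 CPM in Gja5+Cd44+ YS, 271 CPM in Gja5-Cd44+ YS and 277 CPM in Gja5+Cd44+ CR, a ratio of 0.529 over Gja5-Cd44+ YS and 0.517 over Gja5+Cd44+ CR. Hmga2 was at 402 CPM (391 to 414) in Gja5+Cd44+ YS, 296 CPM (284 to 308) in Gja5-Cd44+ YS and 952 CPM (932 to 972) in Gja5+Cd44+ CR. Igf2bp3 stood at 138 CPM in Gja5+Cd44+ YS, 155 CPM in Gja5-Cd44+ YS and 122 CPM in Gja5+Cd44+ CR. Arid3a stood at 164 CPM in Gja5+Cd44+ YS, 127 CPM in Gja5-Cd44+ YS and 105 CPM in Gja5+Cd44+ CR. Past 2-fold, Gja5+Cd44+ YS was lower than Gja5-Cd44+ YS in Lin28b and higher in Igf2bp2, among genes of which 17.6% were lower and 19.7% higher past that ratio (37.2% either way). It was lower than Gja5+Cd44+ CR in Lin28b and Hmga2, where 15.6% of genes were lower and 14.3% higher (29.9% either way).

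**Figure D5:**
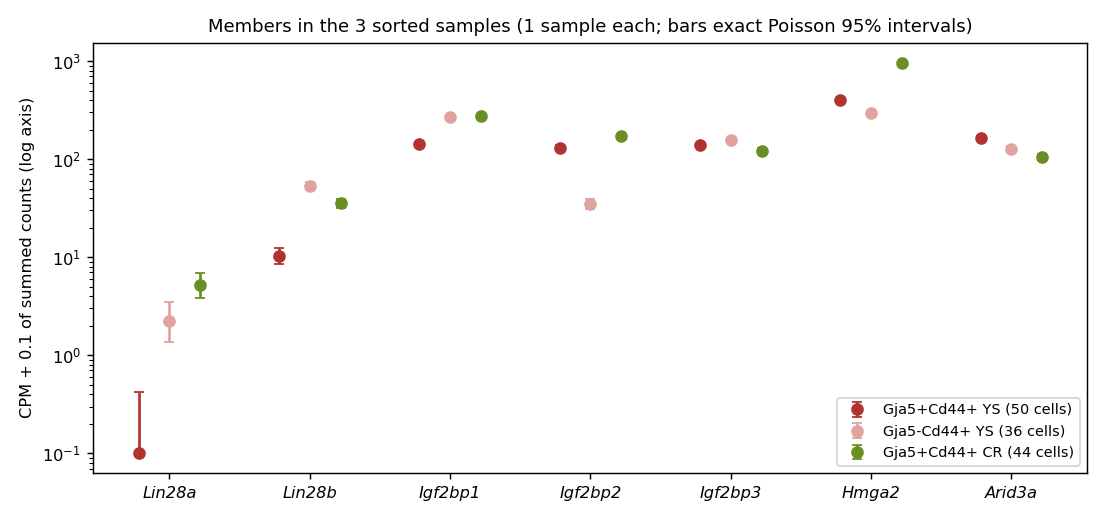
Levels of 7 of the genes in the 3 sorted samples, as CPM + 0.1 on a log axis with exact Poisson 95% bars. Lin28b is lowest and Lin28a has no count in Gja5+Cd44+ YS, while Igf2bp2 is lowest in Gja5-Cd44+ YS.

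Blood transcripts moved with these sorted groups. Cells with 6 or more blood genes made up 9 of 50 in Gja5+Cd44+ YS, 24 of 36 in Gja5-Cd44+ YS and 7 of 44 in Gja5+Cd44+ CR, and the 23 blood genes summed to 637 CPM in Gja5+Cd44+ YS, 1160 CPM in Gja5-Cd44+ YS and 459 CPM in Gja5+Cd44+ CR. Cdh5 stood at 1210 CPM in Gja5+Cd44+ YS, 287 CPM in Gja5-Cd44+ YS and 724 CPM in Gja5+Cd44+ CR. Gja5, by which the samples are labelled, stood at 1260 CPM in Gja5+Cd44+ YS, 0.12 CPM in Gja5-Cd44+ YS and 765 CPM in Gja5+Cd44+ CR. The part of blood transcripts in the Lin28b and Igf2bp2 differences was not tested. Median counts per cell lay between 164000 and 178000.

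Known partners and targets of the programme were counted in Cdh5-expressing cells at E10.0 over E8.5, where 2.3% of all genes tested were called and their median log2 fold change was 0.13. At that share a short list holds few calls or none, so the counts describe the lists and set none of them apart. Of 27 tested let-7 targets from textbook work, among them Ccnd1, Myc and Igf1r, 0 rose and 0 fell in edgeR (median 0.09), with 4 at an unadjusted p under 0.05 and 0 called by DESeq2. Of 22 genes that process let-7 or work with LIN28, such as Drosha, Dicer1 and Dis3l2, 0 were called (median 0.15; 1 at an unadjusted p under 0.05 and 0 by DESeq2). Of 147 tested genes with 2 or more CTACCTC matches in the 3′ UTR, the 8 excluded, 0 were called (median 0.29), with 14 at an unadjusted p under 0.05 and 6 called by DESeq2. Of 8 tested genes of the early embryo 0 were called (median -1.51; 2 unadjusted, 0 by DESeq2), and of 8 other ARID genes 0 (median 0.62; 1 unadjusted, 0 by DESeq2).

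Among 7 tested genes of the IGF axis, 1 rose: Igf2, the fetal growth factor whose mRNA IGF2BP proteins bind. It averaged 673 ± 46.6, 1130 ± 261, 1270 ± 266, 2720 ± 111 and 3390 ± 1100 CPM from E8.0 to E10.0 (SD, n = 2, 2, 5, 2 and 9), with a log2 fold change of 1.46 (SE 0.29, adjusted p = 0.00412, edgeR). Among 7 other HMG genes, 1 fell: Hmgn1, which encodes a nucleosome-binding protein, at 1060 ± 131, 1300 ± 74.3, 1210 ± 159, 847 ± 3.98 and 738 ± 75.0 CPM, with a log2 fold change of -0.96 (SE 0.2, adjusted p = 0.00623, edgeR). Neither call stood without E8.5 replicate 3 (adjusted p = 0.0616 for Igf2 and 0.147 for Hmgn1) or replicate 10 (0.103 and 0.253), and both stood under the second gate with any E8.5 library left out. The second gate, which called 5.77% of all genes, added Zcchc6 (a uridylyl transferase acting on precursor let-7) and Arid5b among genes that rose, and of 151 genes with 2 or more matches 4 rose and 3 fell.

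In blood-marker cells at E9.5 over E8.5 the same lists were read against 4.81% of all genes called under the planned gate. There 1 of 27 let-7 targets fell, Rrm2, a ribonucleotide reductase subunit (-1.31, adjusted p = 0.0408, edgeR), and 1 of 7 IGF-axis genes fell, H19, the imprinted RNA beside Igf2 (-2.37, adjusted p = 0.00257), while 0 rose in either list. Of 135 genes with 2 or more matches 3 rose and 3 fell, with a median of 0.14 against 0.12 for all genes. In the other lists 0 were called by edgeR: of 21 processing genes 2 had an unadjusted p under 0.05 and DESeq2 called 2, of 7 HMG genes 3 and 1, of 7 ARID genes 2 and 0, and of 7 early embryonic genes 1 and 0.

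The second gate called 10.3% of all genes in that comparison. Of 151 genes with 2 or more matches 6 rose and 11 fell, with a median of -0.13 against 0.01 for all genes. Among let-7 targets Thbs1 rose (3.18, adjusted p = 0.0322, edgeR), and E2f5 (-1.29, adjusted p = 0.0114) and Rrm2 (-0.6, adjusted p = 0.0442) fell. In the IGF axis Igf1 (-4.5, adjusted p = 0.000273) and Igf2 (-1.85, adjusted p = 0.0412) fell, and among HMG genes Hmgb1 (-0.34, adjusted p = 0.0443) and Hmgn1 (-0.57, adjusted p = 0.00063). Of 9 early embryonic genes Dppa2 rose (5.26, SE 1.57, adjusted p = 0.0413). Of 22 processing genes 0 were called (4 at an unadjusted p under 0.05, 2 by DESeq2), and of 8 ARID genes 0 (1 unadjusted, 0 by DESeq2).

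The genes whose pattern over the 20 Cdh5-expressing libraries lay nearest to each of the 7 were found by the root mean square difference of centred log2 CPM. The 3 nearest were Polr1e (1.22), Phgdh (1.31) and Hddc2 (1.33) for Lin28a, and Ino80e (1.43), Ralgps2 (1.46) and Ptpmt1 (1.5) for Lin28b. They were closer for Igf2bp1 (Anp32e 0.368, Serbp1 0.395 and Ssrp1 0.395), Igf2bp3 (Khdrbs1 0.369, Eif3c 0.407 and Hnrnpa3 0.418) and Igf2bp2 (Supt16 0.465, Gspt1 0.505 and Prpf8 0.521). For Hmga2 they were Prpf8 (0.641), Supt16 (0.652) and Ddx21 (0.666), and for Arid3a Mrpl33 (0.498), Slc38a10 (0.507) and Uqcc2 (0.512). None of the 8 was among the 3 nearest of another.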

How the data were processed

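Single-cell RNA counts were made with a modified single-cell tagged reverse transcription protocol, per the labels' protocols: single cells were picked, and the oligo-dT primer added a barcode per cell and a unique molecular identifier. The authors deposited raw counts, as whole numbers, with 1 row per gene symbol and 1 column per cell. The build was mm10, per the submitters' processing notes. Not given in the sources used here were the aligner, the annotation, whether identifiers were collapsed, the use of strand and the filter on cells; the word counts is kept for that reason. From the sorted data, 92 spike-in rows were removed.

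No 2 stage cells had identical columns (0), and 0 cell names were shared between libraries. Cells were gated on Cdh5 and 23 blood genes at 10 CPM, counts were summed per library and class (at least 3 cells), and sums were tested with edgeR 4.0.16 in R 4.3.3 (quasi-likelihood test, TMM scaling, filterByExpr, Benjamini-Hochberg adjustment over all genes tested, called at 0.05). All stages of a class shared 1 fit. Class and Gja5 comparisons had the library as a block, and the differences of change between classes did not. Alternatives were DESeq2 1.42.0, its size factors in edgeR, no filter, a stricter gate (Cdh5 at 50 CPM, at least 5 blood genes for the blood class), all cells, at least 5 cells per library, consecutive batch titles summed, no block, and each library left out. Some fits had only part of their libraries left out. Second-gate stage fits of Cdh5-expressing cells had only E8.5 and E9.0 libraries left out, and second-gate Gja5 and difference fits had none. The planned-gate difference fit had only E8.5 and E9.5 libraries left out. Tests were checked on simulated counts.

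The second gate, the contrasts of E9.5 with E9.0 and of E10.0 with E9.5, and the difference at E9.5 were added after the data were seen. The planned gate gave no E9.0 library of blood-marker cells, so those comparisons use the second. The 8 genes and the lists were chosen with earlier results of these data known. Text names the 8, up to 4 called genes per list and direction at E10.0 over E8.5, and the 3 genes nearest in pattern; other list genes were named after their values were seen. Doublets were not called, since cells were picked. Sequences came from RefSeq (GRCm38.p6) and GENCODE M21 (GRCm38), and CTACCTC was sought on the transcribed strand. Intervals and the floor of 3 counts cover counting error only. Python 3.11.15, pandas 2.3.3, scipy 1.17.1 and matplotlib 3.10.9 were used.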

Additional observations from a re-analysis of the deposited data

Results flagged for a closer look

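Among 63 groups of 4 to 10 libraries, 11 held a library farther from its neighbours than Dixon's 95% critical value allows. For independent groups with normal values, chance would give about 1 in 20 groups, or 3. The groups share libraries across genes and gates, and CPM was not checked for a normal spread. The 11 can therefore not be weighed against the 3. E9.5 replicate 2 stood apart in blood-marker cells for 3 genes at once under the planned gate: Hmga2 was at 318 CPM with the next library at 78.9, Igf2bp1 at 271 with the next at 123, and Lin28a at 13.5 with the next at 0.862. Under the second gate its Igf2bp1 was at 263 CPM, with the next library at 126.

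In Cdh5-expressing cells at E9.0, Lin28b in replicate 5 was at 68.0 CPM (next 28.6) under the planned gate and at 72.0 CPM (next 31.2) under the second. Igf2bp2 in E9.0 replicate 8 was the low value, at 16.7 CPM under either gate, with the next libraries at 64.8 and 58.4 CPM. Hmga2 in E10.0 replicate 4 was at 431 CPM (next 226) in Cdh5-expressing cells of the second gate. In blood-marker cells of the second gate, Lin28a in E9.0 replicate 3 was at 12.7 CPM (next 5.07) and Arid3a in E9.5 replicate 9 at 238 CPM (next 133).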

How the results depend on the processing

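Of the alternatives for single genes, 1945 stayed on the same side of the threshold, with the same direction where called, 15 newly passed, 5 no longer passed and 2 turned round. The 2 came with all cells of each library: Igf2bp3 at E10.0 over E8.5 was 0.55 (adjusted p = 0.0207, edgeR) and Lin28b at E10.0 over E9.5 was -1.94 (adjusted p = 0.00416). The 1945 include genes that were never called. Where the planned gate gave a fit, calls lost within the second gate were not counted. There, with an E8.5 or E9.0 library left out, Igf2bp1 at E10.0 over E8.5 was called in 2 of 9 fits and Lin28b in 5 of 9. Lin28a at E10.0 over E8.5 passed under every alternative that left out no library, between -5.05 and -3.57. Lin28b in that comparison passed with all cells (-2.6, adjusted p = 0.000163) and with consecutive batches summed (-2.38, 0.0128). Igf2bp1 passed with all cells (-0.56, 0.026). The causes were not tested.

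Counts of called genes moved more. With DESeq2 they were 528 at E10.0 over E8.5 (272 reported), 22 at E9.0 over E8.5 (0), 467 at E10.0 over E9.0 (200), 4 at E8.5 over E8.0 (0), 7 at E10.0 over E9.5 (0), 1114 in blood-marker cells at E9.5 over E8.5 (575), 17 at E9.5 over E9.0 (1), 61 and 64 for the differences at E9.5 (8) and E9.0 (7), and 106 for Gja5 (23). With its size factors in edgeR they were 2 at E9.0 over E8.5 and 13 for the difference at E9.5. Those size factors moved the median log2 fold change of all genes at E10.0 over E8.5 to 0.26, against 0.13. Genes higher and lower there were 90 and 182 as reported, 104 and 120 with these size factors and 374 and 154 with DESeq2, and at E10.0 over E9.0 53 and 147, 59 and 95, and 284 and 183.

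Without the filter the counts were 436, 65, 385, 14, 28 and 12 for E10.0 over E8.5, E9.0 over E8.5, E10.0 over E9.0, E8.5 over E8.0, E9.5 over E9.0 and E10.0 over E9.5, 97 for the difference at E9.5 and 66 for Gja5. With all cells they were 4317, 73, 2824 and 3732 (E10.0 over E8.5, E9.0 over E8.5, E10.0 over E9.0, E10.0 over E9.5), and with at least 5 cells 2, 3 and 1 (E9.0 over E8.5, E10.0 over E9.0, E10.0 over E9.5). With consecutive batches summed they were 976, 92, 121, 6, 4 and 4 in the order of the filter, 14, 0 and 0 in blood-marker cells (E9.5 over E8.5, E9.0 over E8.5, E9.5 over E9.0), and 61 and 0 for the differences at E9.5 and E9.0. Under the second gate they were 699, 5, 3 and 3 (E10.0 over E8.5, E9.0 over E8.5, E8.5 over E8.0, E10.0 over E9.5), 1313 in blood-marker cells at E9.5 over E8.5, 2032 between classes (1187) and 19 for the difference at E9.5. Without the library block the class and Gja5 counts were 779 and 3.

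With each library left out in turn, counts ran from 25 to 385 (E10.0 over E8.5), 76 to 266 (E10.0 over E9.0), 0 to 9 (E9.0 over E8.5), 0 to 1 (E8.5 over E8.0), 0 to 3 (E10.0 over E9.5), 144 to 753, 192 to 624 and 0 to 3 in blood-marker cells (E9.5 over E8.5, E9.0 over E8.5, E9.5 over E9.0), 0 to 29 for the difference at E9.5 and 15 to 22 for Gja5. For the difference at E9.5 only E8.5 and E9.5 libraries were left out. The lowest E10.0 over E8.5 counts came without E8.5 replicate 3 (25) and replicate 10 (94). Blood-marker, class and Gja5 comparisons gave no value under several stricter settings, for want of libraries. No paired analysis was possible because replicate numbers were given in accession order; the library block above pairs classes within a library. With 2 libraries at E8.0, E8.5 and E9.5, precision there was low.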
